A study of Mus musculus with 24 samples.

Results

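Whole ovaries of 9-month-old mice were compared with whole ovaries of 3-month-old mice, 3 mice at each age, which are 6 of the 24 libraries of the study. The libraries were chosen by the age in their labels and by nothing measured in them, and the comparison asks which of all genes differ between these ages. All 6 mice belonged to the natural aging series and, per the methods, were C57BL/6J females from which total RNA of 1 homogenized ovary each was sequenced. The labels give no treatment for either age. The study also sequenced ovaries of mice given the senolytic drug ABT263 and describes vehicle and housing with males for the controls of that experiment, and whether the 9-month libraries come from such controls is not settled by the labels. Neither the stage of the estrous cycle nor mating is recorded for any of the 6 mice. The labels number the samples of each age 1 to 3, and the study states that separate mice were sequenced at each age, so these are called mice 1 to 3. The numbers were not taken as pairs.

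The mouse ovary holds a fixed store of oocytes, each in a follicle of granulosa cells, and this store shrinks through reproductive life. Oocytes express a program of their own, which includes zona pellucida proteins, growth factors that act on the surrounding granulosa cells and maternal proteins kept for the embryo. Granulosa cells divide as follicles grow, and after ovulation the follicle turns into a corpus luteum, which takes up and makes cholesterol and turns it into progesterone. Macrophages and lymphocytes live in the stroma and gather in the ageing ovary. In RNA from a whole ovary, fewer cells of a type and less RNA per cell cannot be told apart.

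Levels are given in CPM, the counts of a gene relative to the size of its library, scaled with edgeR's TMM factors over all 24 libraries, and the values of a gene are listed in the order of mouse 1, 2 and 3. Fold changes are log2 fold changes of 9 against 3 months from edgeR's quasi-likelihood fit, each with its standard error (SE). Total counts ranged from 18371745 to 20029940 at 3 months and from 18377716 to 21049389 at 9 months and a count of 3 corresponded to 0.143 to 0.163 CPM in the 6 libraries. The ovary markers were present in every mouse, with 8812, 8860 and 7866 CPM summed over 23 granulosa cell genes at 3 months and 5878, 10920 and 9410 CPM at 9 months. Markers of tissue next to the ovary were mostly under the count filter, with 2 of 7 oviduct genes and 3 of 10 adipocyte genes tested. Among these, Ovgp1, a glycoprotein of the oviduct, had 3.92, 3.904 and 35.2 CPM at 3 months and 2.05, 2.03 and 2.09 CPM at 9 months, and Cfd, the adipocyte protease adipsin, had 32.6, 2.46 and 1.17 CPM at 3 months and 0.05399, 1.09 and 0 CPM at 9 months, so each was high in a different 3-month mouse. Mouse 1 of the 9-month group stood apart: on the second principal component of the 6 libraries, with 25.7% of the variance, it lay at -63, and the other 5 lay between 5.06 and 30.8. Results that rest on this mouse are given with and without it.

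Across 17329 genes, 0 genes (0%) passed edgeR's quasi-likelihood test at a Benjamini-Hochberg adjusted p under 0.05, and the lowest adjusted p was 0.0745. At an unadjusted p under 0.05 stood 2358 genes, 1050 higher (6.06%) and 1308 lower (7.55%) at 9 months. DESeq2 gave a different count on the same libraries, with 547 genes called of 19337, of which 227 were higher (1.17%) and 320 lower (1.65%). Without a filter on low counts, edgeR called 681 genes, 629 of them among the 17329 tested, and 456 genes were called both there and by DESeq2, which is 83.4% of the DESeq2 calls and 67% of the no-filter calls. These calls thus depended on the settings, and no gene is described below as having risen or fallen. The values of each mouse are given instead, and the text says whether the 3 values at one age lay wholly above or below those at the other. Of all genes tested, 1421 (8.2%) lay wholly higher and 1995 (11.5%) wholly lower at 9 months, and the median log2 fold change was 0.020. With 3 mice at each age, an exact permutation test of a single value cannot go below 0.1. The gene lists below were chosen with earlier results of these data known, so their counts are a description and not independent evidence.

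**Figure D1:**
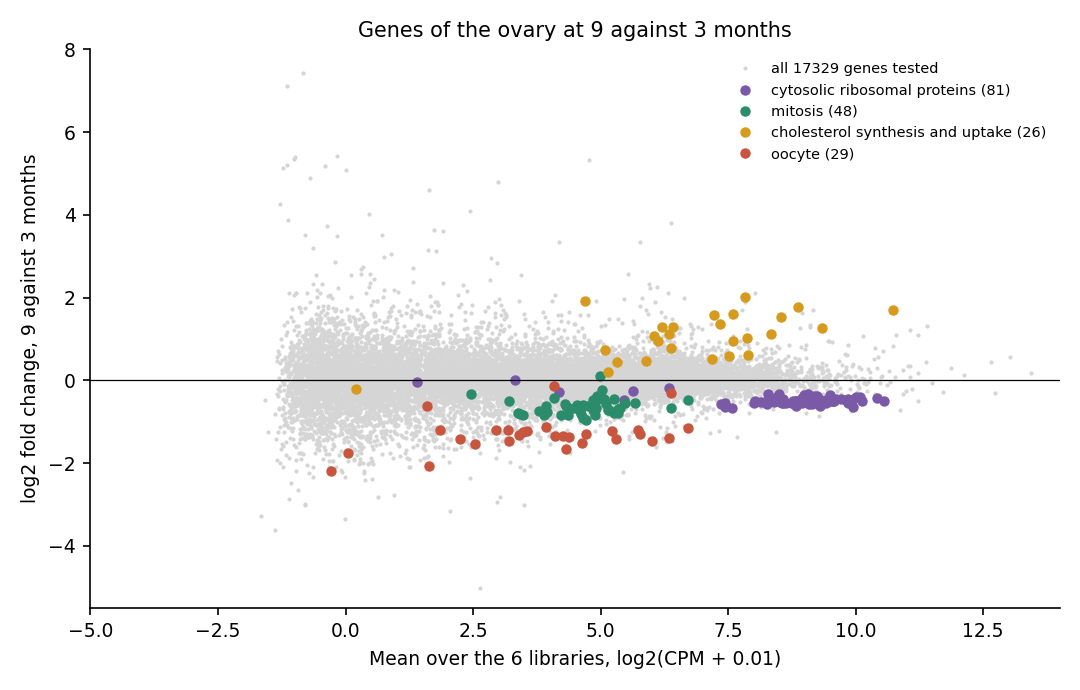
Each grey point is 1 of the 17329 genes tested, placed by its mean over the 6 libraries (horizontal axis, log2 of CPM plus 0.01) and its log2 fold change at 9 against 3 months (vertical axis). Coloured points are the genes of 4 lists. The oocyte genes lie below 0 in full, 47 of 48 mitosis genes and 80 of 81 ribosomal protein genes lie below 0, and 25 of 26 cholesterol genes lie above it.

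The oocyte program was lower at 9 months. All 29 oocyte genes listed were tested, all 29 had a lower fitted level at 9 months, and 26 of them lay wholly below the 3-month mice, beside 11.5% of all genes. At an unadjusted p under 0.05 stood 27 of the 29, and DESeq2 called 22, beside 7.55% and 1.65% of all genes in that direction. The median log2 fold change was -1.32, against 0.020 over all genes, and it was -1.395 without mouse 1 of the 9-month group. Averaged over the list, the level relative to the 3-month mean was 0.10, 0.12 and -0.22 on the log2 scale in the 3-month mice and -1.17, -2.02 and -0.87 in the 9-month mice. Mouse 2 had the lowest level of the 9-month mice, and mouse 3 had the highest.

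Genes of factors that oocytes secrete were lower. Gdf9, a growth factor of the TGF-beta family that growing oocytes send to granulosa cells (ENSMUSG00000018238, chromosome 11 from 53431023 to 53437904 in GRCm38), had 102, 104 and 78.8 CPM at 3 months and 34.5, 20.3 and 47.3 CPM at 9 months. The groups did not overlap, the log2 fold change was -1.47 (SE 0.29), and DESeq2 gave an adjusted p of 0.000102. Its partner Bmp15 had 45.3, 39.7 and 24.9 CPM at 3 months and 15.01, 6.9 and 16.4 CPM at 9 months, a log2 fold change of -1.52 (SE 0.35), again without overlap. Oosp1, an oocyte secreted protein, had 15.8, 13.7 and 11.2 CPM at 3 months and 5.13, 2.52 and 7.09 CPM at 9 months. In each of the 3 genes mouse 2 was the lowest of the 9-month mice.

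The genes of the zona pellucida proteins, which form the coat around the oocyte, showed the same order of the 9-month mice. Zp1 had 25.96, 36.5 and 28.7 CPM at 3 months and 10.4, 4.98 and 13.2 CPM at 9 months, with a log2 fold change of -1.67 (SE 0.33). Zp2 had 72.9, 86.2 and 62.1 CPM at 3 months and 35.6, 18.1 and 42.7 CPM at 9 months, a log2 fold change of -1.19 (SE 0.30). Zp3, which forms filaments of the coat with Zp2, had 53.1, 66.1 and 51.8 CPM at 3 months and 23.2, 11.3 and 29.6 CPM at 9 months and a log2 fold change of -1.41 (SE 0.32). All 3 lay wholly lower at 9 months.

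The 3 largest fold changes of the list were those of the transcription factors Figla, Lhx8 and Sohlh1, which had low counts. Lhx8, needed to keep the oocytes of primordial follicles, had 5.19, 4.76 and 5.19 CPM at 3 months and 1.35, 0.548 and 1.67 CPM at 9 months and a log2 fold change of -2.07 (SE 0.40). Figla, which drives the zona genes, had 1.67, 1.55 and 0.815 CPM at 3 months and 0.2699, 0.0548 and 0.523 CPM at 9 months, a log2 fold change of -2.19 (SE 0.65). Sohlh1, an upstream factor of early follicles, had 1.72, 1.497 and 1.58 CPM at 3 months and 0.756, 0.0548 and 0.571 CPM at 9 months, and its log2 fold change was -1.77 (SE 0.65). Nobox, the homeobox factor of oocytes, had 13.5, 13.7 and 10.8 CPM at 3 months and 4.64, 2.79 and 8.85 CPM at 9 months, with a log2 fold change of -1.21 (SE 0.39). Whether these fold changes differ from those of the zona genes was not tested. Taf4b, a subunit of a general transcription factor that is also used in other cells, had 21.7, 17.5 and 14.7 CPM at 3 months and 15.7, 13.4 and 19.4 CPM at 9 months, and its values overlapped.

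Genes of maternal proteins stored for the embryo were lower as well, with exceptions. Nlrp5, a member of the subcortical maternal complex, had 60.3, 56.7 and 40.8 CPM at 3 months and 25.6, 11.6 and 30.1 CPM at 9 months. Ooep and Padi6 of the same protein network had log2 fold changes of -1.35 (SE 0.31) and -1.39 (SE 0.33), with Padi6 at 114, 138 and 100 CPM at 3 months and 44.97, 23.8 and 65.6 CPM at 9 months. Tle6, a further member of this complex, had 87.7, 94.9 and 95.3 CPM at 3 months and 63.4, 84.9 and 75.9 CPM at 9 months. The groups did not overlap for Tle6 either, yet its log2 fold change was only -0.31 (SE 0.13). Khdc3, also of the complex, had 3.53, 2.83 and 4.63 CPM at 3 months and 1.404, 1.31 and 4.33 CPM at 9 months, and mouse 3 of the 9-month group lay among the 3-month mice. Npm2 and H1foo, which package the chromatin of the egg, had log2 fold changes of -1.12 (SE 0.23) and -1.29 (SE 0.26). Mos, the kinase that holds the mature egg in meiosis, had 10.1, 8.56 and 7.23 CPM at 3 months and 2.81, 2.41 and 3.71 CPM at 9 months and a log2 fold change of -1.53 (SE 0.26).

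Among RNA-binding genes of germ cells, Ddx4, the germ cell helicase, had 4.16, 5.56 and 5.398 CPM at 3 months and 3.46, 0.657 and 2.47 CPM at 9 months, and Dazl had 10.04, 7.17 and 3.36 CPM at 3 months and 2.21, 2.74 and 2.76 CPM at 9 months. Ybx2, which packs maternal mRNA, had 18.3, 15.2 and 16.1 CPM at 3 months and 6.803, 4.71 and 9.704 CPM at 9 months, a log2 fold change of -1.22 (SE 0.27). Bcl2l10, an oocyte member of the BCL2 family, had 32.04, 27.9 and 22.8 CPM at 3 months and 11.8, 6.95 and 13.7 CPM at 9 months, and its log2 fold change was -1.35 (SE 0.27). Uchl1, a ubiquitin hydrolase that is also abundant in nerve cells, had 83.8, 247 and 104 CPM at 3 months and 109, 38.9 and 46.1 CPM at 9 months, with overlap.

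**Figure D2:**
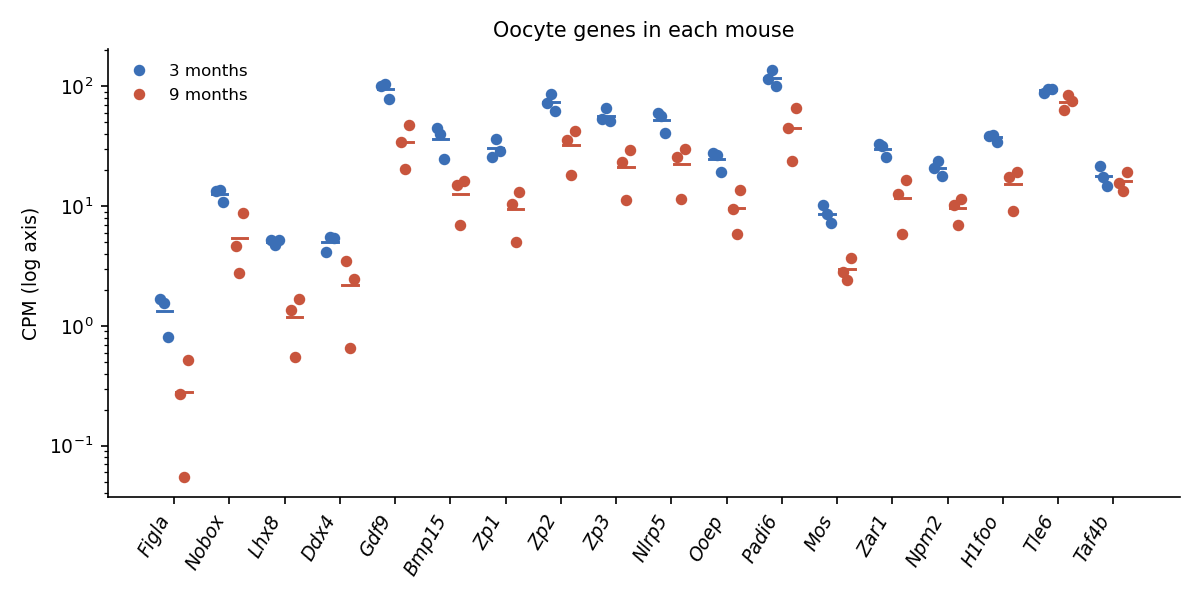
CPM on a log axis in each of the 3 mice at 3 months (blue) and at 9 months (red) for 18 of the 29 oocyte genes, with the mean as a bar and mice 1 to 3 from left to right within a group. The groups do not overlap for any gene shown except Taf4b, and mouse 2 is the lowest 9-month mouse for most of them.

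Granulosa cell genes differed among themselves. Of 23 genes, 14 had a lower and 9 a higher fitted level, and 6 lay wholly lower and 1 wholly higher, beside 11.5% and 8.2% of all genes. The median log2 fold change was -0.069, with a range from -0.22 to -0.00 as each mouse was left out. Amh, the hormone that granulosa cells of small growing follicles release, had 385, 276 and 226 CPM at 3 months and 149.8, 61.3 and 128 CPM at 9 months. Its groups did not overlap, its log2 fold change was -1.38 (SE 0.34), and DESeq2 gave an adjusted p of 0.00132. The transporter Slc18a2 had 266, 209.5 and 129 CPM at 3 months and 119, 43.3 and 86.2 CPM at 9 months and a log2 fold change of -1.28 (SE 0.38). Grb14, a signalling adaptor, had 437, 433 and 362 CPM at 3 months and 261, 218 and 281 CPM at 9 months, a log2 fold change of -0.70 (SE 0.15). Esr2, the estrogen receptor of granulosa cells, and Fshr, the receptor of follicle-stimulating hormone, lay wholly lower at log2 fold changes of -0.69 (SE 0.19) and -0.54 (SE 0.20). By contrast Foxl2, which keeps granulosa cell identity, had 247, 202 and 311 CPM at 3 months and 251, 251 and 284 CPM at 9 months, a log2 fold change of 0.04 (SE 0.17). Kitl, the granulosa ligand of the oocyte receptor KIT, lay wholly higher with 97.5, 78.4 and 66.5 CPM at 3 months and 128, 121 and 103 CPM at 9 months. Cyp19a1, the aromatase of estrogen-producing follicles, had 16.8, 47.8 and 6.67 CPM at 3 months and 18.8, 243 and 77.97 CPM at 9 months, so that mice of both ages covered a wide range and overlapped. Of 17 TGF-beta family ligands tested, 3 lay wholly lower, beside 11.5% of all genes, and these were Amh, Gdf9 and Bmp15. Of 22 receptors and inhibitors of the family, 4 lay wholly higher and 0 wholly lower, beside 8.2% and 11.5% of all genes. Among the 4 were the receptors Tgfbr1 and Tgfbr2 at log2 fold changes of 0.34 (SE 0.15) and 0.36 (SE 0.10).

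Genes of cell division were lower at 9 months. Of 48 mitosis genes, 47 had a lower fitted level, 32 lay wholly lower, 32 had an unadjusted p under 0.05 and DESeq2 called 11, with a median log2 fold change of -0.67. Of 46 genes of DNA replication, 46 had a lower fitted level, 31 lay wholly lower, 27 had an unadjusted p under 0.05 and DESeq2 called 5, with a median of -0.49. Over all genes, 11.5% lay wholly lower, 7.55% had such a p in that direction and DESeq2 called 1.65% lower. Averaged over the mitosis list, the log2 level relative to the 3-month mean was 0.23, -0.17 and -0.05 at 3 months and -0.35, -1.06 and -0.57 at 9 months, so the averages did not overlap. Cks2, a partner of the mitotic kinase CDK1, had 35.03, 29.2 and 30 CPM at 3 months and 18.3, 17.5 and 17.8 CPM at 9 months, a log2 fold change of -0.82 (SE 0.13). Its values spread little within each age. Cks1b, a close relative of Cks2, had 42.3, 39.1 and 33.7 CPM at 3 months and 19.9, 18.6 and 25.4 CPM at 9 months. Birc5, which encodes survivin of the chromosomal passenger complex, had 39.5, 28.8 and 35.3 CPM at 3 months and 20.1, 13.3 and 20.1 CPM at 9 months and a log2 fold change of -0.95 (SE 0.21). Cdk1 itself had 57.02, 41.98 and 47.4 CPM at 3 months and 31.4, 20.3 and 32.2 CPM at 9 months, a log2 fold change of -0.80 (SE 0.21). Pttg1, the securin, was the mitosis gene with a higher fitted level, at 31.5, 31.7 and 28.4 CPM at 3 months and 28.2, 35.3 and 35.6 CPM at 9 months. Among replication genes, Mcm6 of the replicative helicase had 138, 106 and 103 CPM at 3 months and 75.5, 53.8 and 71.02 CPM at 9 months, Cdc45 had 18.6, 14.8 and 16.1 CPM at 3 months and 10.3, 8.82 and 9.61 CPM at 9 months, and Uhrf1, which keeps DNA methylation through replication, had 77.5, 72.8 and 81.1 CPM at 3 months and 47.2, 28.04 and 47.8 CPM at 9 months. In all 3 the 9-month mice lay below the 3-month mice, and mouse 2 was again the lowest at 9 months.

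Mitosis genes share promoter elements that the choice of the list did not use, and 3 promoters are shown for this reason. The CCAAT box binds the factor NF-Y, and the cell cycle homology region TTTGAA binds the complexes that switch mitotic genes off and on. In RefSeq promoters of GRCm38.p6, from 250 bases before to 50 bases after a start, 42 of the 48 mitosis genes were found, with 44 promoters. On either strand, 34 of the 44 (77.3%) held CCAAT, 30 (68.2%) held TTTGAA and 27 (61.4%) held both, against 37.4%, 17.9% and 6.95% of 32851 promoters in all. Of 42 promoters of DNA replication genes, 57.1% held CCAAT and 9.52% held TTTGAA. Below are the 120 bases before the outermost annotated start of Cdc20, Cdk1 and Ckap2l, the 3 mitosis genes of smallest p without overlap that hold both motifs in this window, with every CCAAT or TTTGAA of either strand in capitals. No CCAAT overlaps a TTTGAA in them.
Cdc20: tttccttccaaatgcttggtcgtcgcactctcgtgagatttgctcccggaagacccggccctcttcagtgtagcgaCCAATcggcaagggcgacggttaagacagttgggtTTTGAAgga
Cdk1: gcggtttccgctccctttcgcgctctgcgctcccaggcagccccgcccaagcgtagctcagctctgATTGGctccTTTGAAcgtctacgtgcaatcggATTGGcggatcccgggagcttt
Ckap2l: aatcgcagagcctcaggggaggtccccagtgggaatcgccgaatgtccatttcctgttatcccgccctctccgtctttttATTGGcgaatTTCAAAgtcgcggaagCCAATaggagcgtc
They lie at chr4:118437353-118437472, chr10:69352939-69353058 and chr2:129297213-129297332, all 3 on the minus strand, and are written 5′ to 3′ along the gene. Beside the values of Cdk1 above, Cdc20, the activator of the anaphase-promoting complex, had 46.6, 41.4 and 45.3 CPM at 3 months and 32.1, 21.3 and 28.1 CPM at 9 months, a log2 fold change of -0.71 (SE 0.17). Ckap2l, a spindle protein, had 26.8, 24.2 and 21.5 CPM at 3 months and 20.7, 10.3 and 15.9 CPM at 9 months, a log2 fold change of -0.63 (SE 0.25). A match is a description of these letters and not a measurement of binding.

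Cytosolic ribosomal protein genes were lower by a small amount. Of 81 genes, 80 had a lower fitted level, 73 lay wholly lower, 74 had an unadjusted p under 0.05 and DESeq2 called 24, and the log2 fold changes ran from -0.66 to 0.015 with a median of -0.49. Over all genes, 11.5% lay wholly lower, 7.55% had such a p in that direction and DESeq2 called 1.65% lower. Summed over the list, the level was 53340, 49940 and 52570 CPM at 3 months and 36620, 34330 and 40400 CPM at 9 months. Rpl32 of the large subunit had 545, 519.7 and 575 CPM at 3 months and 361, 317 and 395 CPM at 9 months, a log2 fold change of -0.61 (SE 0.14), and Rps26 of the small subunit had 819.6, 689.8 and 794 CPM at 3 months and 530.5, 445 and 529 CPM at 9 months, a log2 fold change of -0.62 (SE 0.14). Many of these genes have processed pseudogenes of near-identical sequence, so the reads of a single gene are uncertain. The nuclear subunits of the respiratory chain had a median of -0.061 over 76 genes, and 4 of them lay wholly lower. With the trend in gene length and GC content over all genes subtracted, the ribosomal median was -0.48. The cause of the lower ribosomal level was not tested.

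Chaperone genes were lower in a subset. Of 28 genes of the heat shock and unfolded protein responses, 10 lay wholly lower, 11 had an unadjusted p under 0.05 in that direction and DESeq2 called 7, with a median of -0.26. Over all genes, these 3 shares were 11.5%, 7.55% and 1.65%. Hsph1, which exchanges the nucleotide of HSP70, had 219, 245 and 206 CPM at 3 months and 76.6, 113 and 98.7 CPM at 9 months. It had the smallest p of the list, with a log2 fold change of -1.22 (SE 0.16) and a DESeq2 adjusted p of 3.67e-07. Its constitutive partner Hspa8 had 2365, 2344 and 2243 CPM at 3 months and 1186, 1628 and 1394 CPM at 9 months, a log2 fold change of -0.73 (SE 0.15), and Hsp90aa1 had 747, 652 and 579.7 CPM at 3 months and 353, 403 and 386 CPM at 9 months, a log2 fold change of -0.80 (SE 0.14). In the endoplasmic reticulum, Hspa5, the chaperone BiP, had 1144, 1373 and 1077 CPM at 3 months and 594, 753 and 794 CPM at 9 months, a log2 fold change of -0.75 (SE 0.16). The rule for the largest differences across all genes also named Derl3, a channel component for misfolded proteins, with 74.7, 69.6 and 61.3 CPM at 3 months and 26.1, 19.9 and 31.4 CPM at 9 months, and Creld2, a reticulum protein induced by stress, with 64.3, 93.96 and 73.1 CPM at 3 months and 36.5, 38.6 and 42.4 CPM at 9 months. Their log2 fold changes were -1.41 (SE 0.18) and -0.98 (SE 0.16). The stress-inducible Hspa1a had 7.299, 11.8 and 5.86 CPM at 3 months and 6.695, 8.49 and 9.18 CPM at 9 months, which overlapped.

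Apart from the lists, a rule picked the 12 protein-coding genes of smallest p in each direction among those without overlap and with a mean of at least 2 CPM. None of these 24 passed, and their edgeR adjusted p-values ran from 0.0745 to 0.148. DESeq2 called all 24 at adjusted p-values from 1.61e-15 to 0.00223. Abcb1b, one of the mouse multidrug transporters of the P-glycoprotein type (ENSMUSG00000028970, chromosome 5 from 8798147 to 8866315 in GRCm38), had 265, 240.1 and 304 CPM at 3 months and 890.2, 1026 and 717 CPM at 9 months. Its log2 fold change was 1.70 (SE 0.17). edgeR called it when mouse 1 of the 9-month group was left out, at an adjusted p of 0.0496. In edgeR's fit of all 24 libraries it was not called, at an adjusted p of 0.363. Its relative Abcb1a had 45.2, 37.01 and 42.3 CPM at 3 months and 90.7, 64.7 and 41.8 CPM at 9 months, with overlap.

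The other higher genes included a nuclear receptor, a kinase and a phosphodiesterase. Nr4a1, an immediate early nuclear receptor, had 37.03, 47.5 and 48.3 CPM at 3 months and 106, 156 and 108 CPM at 9 months, a log2 fold change of 1.47 (SE 0.19). Sik1, a kinase induced by cyclic AMP, had 23.1, 23.8 and 33.1 CPM at 3 months and 66.6, 89.3 and 61.6 CPM at 9 months, a log2 fold change of 1.44 (SE 0.20). Pde1a, a phosphodiesterase that degrades cyclic nucleotides, had 24.8, 24.6 and 26.1 CPM at 3 months and 49.02, 46.7 and 36.8 CPM at 9 months. The wider immediate early list was mixed. Of 22 genes, 14 had a higher fitted level, 4 lay wholly higher, beside 8.2% of all genes, and 2 wholly lower, beside 11.5%. DESeq2 called Nr4a1 and Klf4, both higher, beside 1.17% of all genes in that direction. Klf4, a zinc finger transcription factor, had 10.7, 12.1 and 11.2 CPM at 3 months and 16.9, 27.9 and 20.5 CPM at 9 months, a log2 fold change of 0.93 (SE 0.20). Egr1, another zinc finger factor of this response, lay wholly lower with 97.4, 159.9 and 91.97 CPM at 3 months and 84.2, 89.2 and 78.3 CPM at 9 months, and Fos had 21.4, 28.6 and 14.7 CPM at 3 months and 7.77, 12.1 and 15.1 CPM at 9 months, which overlapped. Cpeb4, a regulator of mRNA polyadenylation, had 40.7, 28.6 and 32.4 CPM at 3 months and 68.4, 81.5 and 65.1 CPM at 9 months, and Rgcc, a cell cycle regulator that responds to complement, had 72.6, 43.4 and 50.01 CPM at 3 months and 127, 110.3 and 160.1 CPM at 9 months. Lrrn4 had 4.801, 5.401 and 4.94 CPM at 3 months and 10.3, 10.3 and 12.7 CPM at 9 months and Pcdhb9, a clustered protocadherin, had 9.31, 11.6 and 12.7 CPM at 3 months and 21.5, 22.7 and 20.7 CPM at 9 months. The other 4 of the 12, Rsad2, Slc11a1, Ctss and Sectm1a, are described with the macrophage and interferon genes.

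The lower 12 included 2 collagen genes. Col9a2, a collagen chain known from cartilage (ENSMUSG00000028626, chromosome 4 from 121039385 to 121055322), had 80, 67.4 and 65.8 CPM at 3 months and 17.5, 8.82 and 19.5 CPM at 9 months and the largest fold change of the 24, at -2.21 (SE 0.28). Col11a1, a fibrillar collagen of cartilage and growing tissue, had 116, 99.6 and 81.9 CPM at 3 months and 42.2, 49.01 and 44.8 CPM at 9 months, a log2 fold change of -1.13 (SE 0.15). Slc25a48, a mitochondrial carrier, had 6.56, 6.63 and 6.37 CPM at 3 months and 1.51, 1.48 and 1.998 CPM at 9 months, and the ages were far apart beside the spread within each. Hpgd, which inactivates prostaglandins, had 83.5, 71.7 and 51.3 CPM at 3 months and 24.6, 30.9 and 32.1 CPM at 9 months, a log2 fold change of -1.24 (SE 0.19). Serpinc1, which encodes antithrombin, had 3.87, 4.97 and 4.74 CPM at 3 months and 1.19, 1.04 and 1.48 CPM at 9 months. Pdlim1, Rhobtb1 and Ubash3b, genes of the cytoskeleton and of signalling, had smaller log2 fold changes of -0.91 (SE 0.13), -0.83 (SE 0.12) and -0.92 (SE 0.13). Outside the 12, Adamts5, which cleaves aggrecan and versican, had 53.1, 58.6 and 37.8 CPM at 3 months and 18.7, 25.6 and 23.4 CPM at 9 months, while Lum, a small proteoglycan of collagen fibrils, had 114, 122 and 106 CPM at 3 months and 268, 167 and 131 CPM at 9 months. Of 23 fibrillar collagen and matrix genes 3 lay wholly lower and 2 wholly higher, and of 28 genes of basement membrane and network collagens 3 lay wholly lower and 0 wholly higher. Over all genes, 11.5% lay wholly lower and 8.2% wholly higher, so these counts were near those shares or below them.

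**Figure D3:**
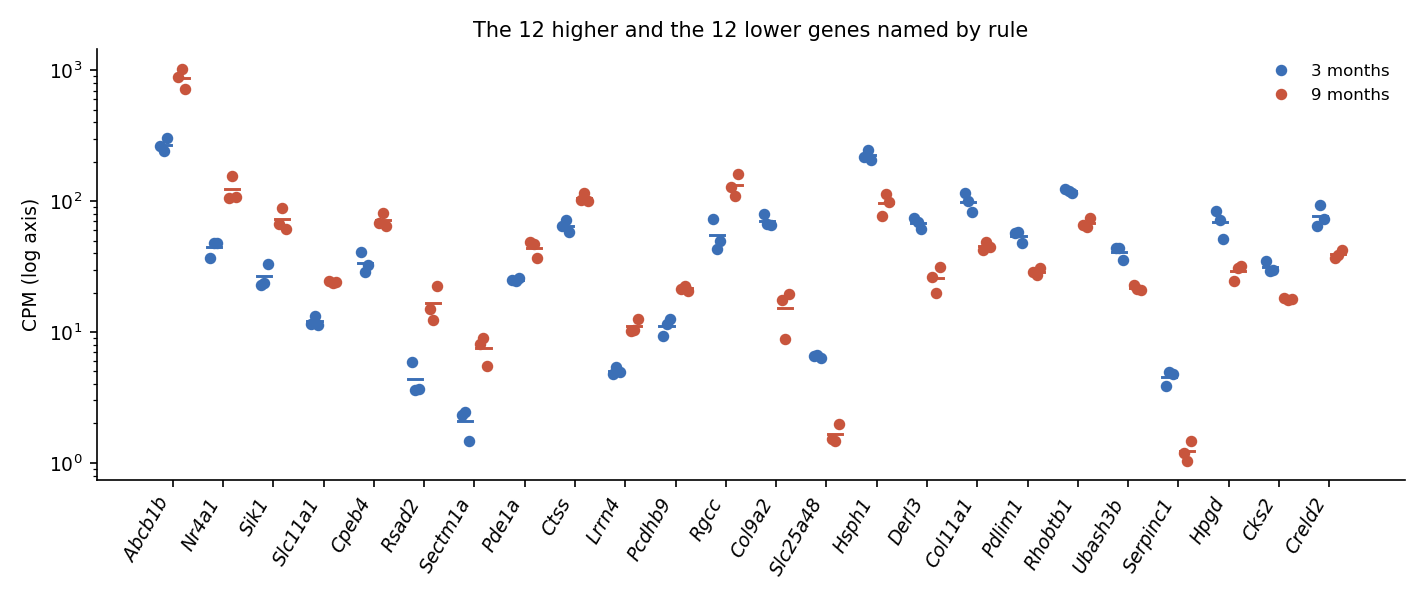
CPM on a log axis in each mouse at 3 months (blue) and 9 months (red) for the 12 genes higher and the 12 genes lower at 9 months that the rule named, with the mean as a bar. The groups do not overlap for any of the 24, as the rule required.

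Genes of cholesterol were higher in 2 of the 3 older mice. Of 26 genes of cholesterol synthesis and uptake 25 had a higher fitted level, yet only 2 lay wholly higher, 9 had an unadjusted p under 0.05 and DESeq2 called 1, and the median log2 fold change was 1.10. Over all genes, 8.2% lay wholly higher, 6.06% had such a p in that direction and DESeq2 called 1.17% higher. Averaged over the list, the log2 level relative to the 3-month mean was 0.42, -0.66 and 0.24 at 3 months and -0.32, 1.60 and 1.49 at 9 months. Mouse 1 of the 9-month group was thus within the range of the 3-month mice, and without it the median was 1.51. Insig1, which holds back the pathway when sterol is plentiful, had 83.6, 58.6 and 81.2 CPM at 3 months and 60.6, 284 and 328 CPM at 9 months, a log2 fold change of 1.58 (SE 0.52), or 2.03 without mouse 1. Across all genes, edgeR called 10 without that mouse, all higher, and Insig1 and Sc5d of this list were among them. Srebf2, the transcription factor of the pathway, had 158, 184 and 219 CPM at 3 months and 220.5, 357 and 276 CPM at 9 months, and was 1 of the 2 genes without overlap. Hsd17b7, an enzyme of both cholesterol and estradiol synthesis, differed widely between mice of each age, with 1855, 83.6 and 465 CPM at 3 months and 87.9, 4663 and 3063 CPM at 9 months. CCAAT stood in 17 of 21 promoters (81%) found for 18 of the 26 genes, beside 37.4% of all promoters.

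Haemoglobin genes, which mark blood in the tissue, were also low in mouse 1 and high in mice 2 and 3 of the 9-month group. Hba-a1 had 70.9, 19.04 and 19.4 CPM at 3 months and 8.53, 104 and 91.4 CPM at 9 months, and averaged over 5 erythroid genes the log2 level was 0.99, -0.52 and -0.47 at 3 months and -1.35, 1.52 and 1.32 at 9 months. The part of blood content in the cholesterol result was not tested. Steroid genes did not all follow this order. Of 27 tested, 5 lay wholly higher and 1 wholly lower, beside 8.2% and 11.5% of all genes. Star, which brings cholesterol into mitochondria, had 1438, 371 and 1573 CPM at 3 months and 1941, 2762 and 2522 CPM at 9 months, with no overlap and a log2 fold change of 1.09 (SE 0.47). Fdx1, the electron donor of the side-chain cleavage enzyme, had 745, 442 and 779 CPM at 3 months and 1191, 1061 and 1287 CPM at 9 months, a log2 fold change of 0.85 (SE 0.23). Nr0b1, a repressor of steroid synthesis, had 16.7, 17.4 and 16.96 CPM at 3 months and 6.37, 7.28 and 10.1 CPM at 9 months, a log2 fold change of -1.10 (SE 0.21). Cyp17a1, the androgen-making enzyme of theca cells, had 234, 79.3 and 27.2 CPM at 3 months and 3.24, 128 and 116 CPM at 9 months, and mouse 1 of the 9-month group was the lowest of the 6, so that the log2 fold change was -0.47 with it and 0.10 without it. The luteal genes had a median of 0.70 over 16 genes, with 4 wholly higher and 13 with a higher fitted level, and 0.59 without mouse 1. Prlr, the prolactin receptor, had 500.1, 229 and 381 CPM at 3 months and 541, 858 and 609 CPM at 9 months, and Sfrp4, a secreted modulator of Wnt signals, had 1925, 1417 and 1269 CPM at 3 months and 2168, 6526 and 2785 CPM at 9 months. Akr1c18, which inactivates progesterone in the regressing corpus luteum, had 119, 166 and 8.05 CPM at 3 months and 1164, 81.5 and 19.3 CPM at 9 months. Mouse 1 of the 9-month group thus combined the highest Akr1c18 with low cholesterol genes, and without it the log2 fold change of Akr1c18 was -0.97 in place of 2.12. The cycle stage of the mice was not recorded, and its part in these genes was not tested.

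Macrophage genes differed among themselves. Of 27 genes, 19 had a higher fitted level, 8 lay wholly higher, beside 8.2% of all genes, 9 had an unadjusted p under 0.05 and DESeq2 called 4. Over all genes, 6.06% had such a p in that direction and DESeq2 called 1.17% higher. The median log2 fold change was 0.22, or 0.097 without mouse 1 and 0.36 without mouse 3 of the 9-month group, and 0.14 without mouse 1 and 0.15 without mouse 3 of the 3-month group. The largest fold changes of the list were those of Cd5l and Gpnmb. Gpnmb, a lysosomal glycoprotein of lipid-laden macrophages, had 15.2, 44.6 and 46.04 CPM at 3 months and 78.8, 121 and 132 CPM at 9 months, a log2 fold change of 1.64 (SE 0.40) and a DESeq2 adjusted p of 0.000626. Cd5l, secreted by tissue macrophages, had 1.23, 2.14 and 3.36 CPM at 3 months and 5.56, 7.83 and 22.6 CPM at 9 months, a log2 fold change of 2.42 (SE 0.60). Ctss, the lysosomal protease cathepsin S, had 65.01, 71.5 and 57.9 CPM at 3 months and 101, 116 and 101 CPM at 9 months, a log2 fold change of 0.71 (SE 0.12). Trem2, a lipid receptor, and Clec7a, a receptor of fungal glucans, lay wholly higher at log2 fold changes of 0.68 (SE 0.23) and 0.85 (SE 0.22). Slc11a1, a metal transporter of the phagosome named by the rule on all genes, had 11.6, 13.4 and 11.4 CPM at 3 months and 24.4, 23.6 and 24.1 CPM at 9 months. General markers of macrophages overlapped between the ages. Adgre1, which encodes F4/80, had 20.97, 17.4 and 16.7 CPM at 3 months and 21.5, 16.1 and 14.3 CPM at 9 months, Csf1r, the receptor of macrophage growth factor, had 43.4, 48.2 and 53.3 CPM at 3 months and 49.4, 53.5 and 46.1 CPM at 9 months, and C1qa had 60.9, 65.9 and 60.6 CPM at 3 months and 65.3, 72.1 and 56.04 CPM at 9 months. The 3 had log2 fold changes of -0.09 (SE 0.20), 0.04 (SE 0.12) and 0.04 (SE 0.13). Whether these genes differ from Gpnmb and Ctss in their change was not tested.

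**Figure D4:**
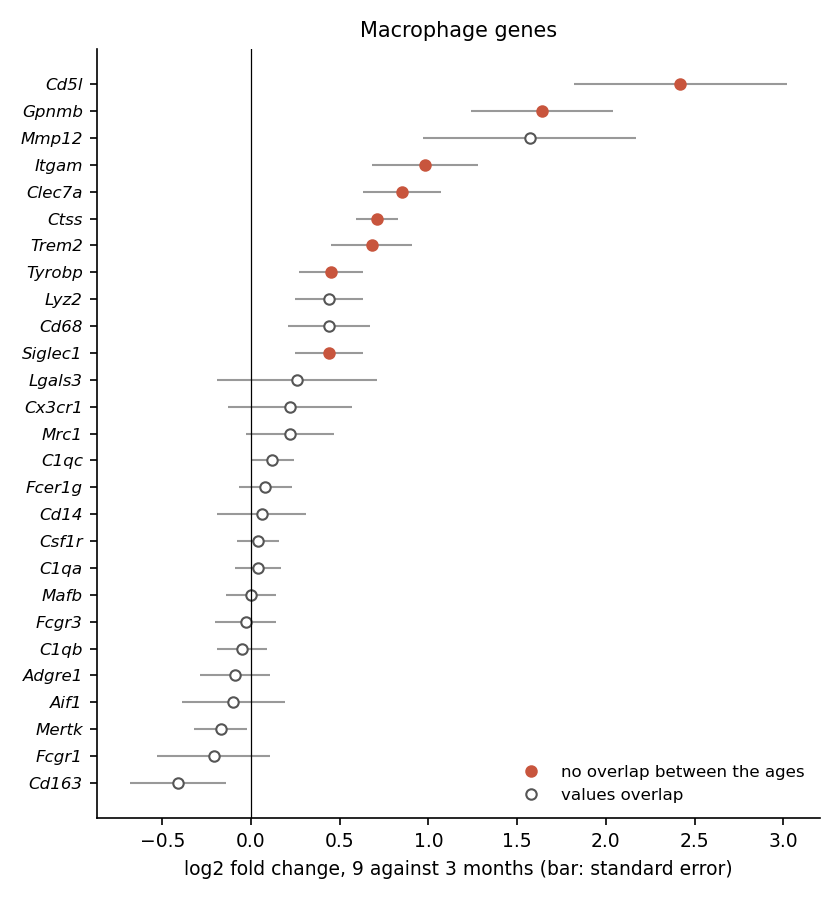
The log2 fold change at 9 against 3 months of the 27 macrophage genes tested, with the standard error as a bar. Filled points mark the 8 genes whose groups did not overlap, and open points mark the others, which include Adgre1, Csf1r and C1qa near 0.

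Most interferon genes had a higher fitted level at 9 months, by small amounts. Averaged over the 32 genes of the list, the log2 level relative to the 3-month mean was 0.34, -0.08 and -0.25 at 3 months. At 9 months it was 0.38, 0.41 and 0.31, so mouse 1 of the 3-month group lay among the 9-month mice. Of 32 genes, 27 had a higher fitted level, 8 lay wholly higher, 10 had an unadjusted p under 0.05 and DESeq2 called 2, with a median log2 fold change of 0.40. Over all genes, 8.2% lay wholly higher, 6.06% had such a p in that direction and DESeq2 called 1.17% higher. Rsad2, the antiviral enzyme viperin, had 5.88, 3.64 and 3.67 CPM at 3 months and 15.01, 12.3 and 22.4 CPM at 9 months, a log2 fold change of 1.91 (SE 0.31). Gbp2, a guanylate-binding protein, had 43.1, 34.6 and 31.7 CPM at 3 months and 67.8, 70.6 and 49.04 CPM at 9 months, a log2 fold change of 0.77 (SE 0.18). Stat2, which carries the interferon signal to the nucleus, had 60.01, 61.1 and 59.02 CPM at 3 months and 70.9, 90.7 and 93.9 CPM at 9 months, and the class I antigen H2-K1 had 352, 303 and 314 CPM at 3 months and 383, 605 and 398 CPM at 9 months. Isg15, one of the most inducible genes of the response, had 7.59, 4.87 and 6.37 CPM at 3 months and 6.101, 6.13 and 6.18 CPM at 9 months, and Mx1 had 1.42, 1.497 and 0.713 CPM at 3 months and 2.11, 1.48 and 0.809 CPM at 9 months, both with overlap. Sectm1a, a ligand of lymphocyte receptors, had 2.302, 2.46 and 1.48 CPM at 3 months and 8.098, 8.98 and 5.47 CPM at 9 months, a log2 fold change of 1.85 (SE 0.31).

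Some genes of antibody-secreting cells were higher, and these differed between the 9-month mice. Of 9 B and plasma cell genes tested, 8 had a higher fitted level and 4 lay wholly higher, beside 8.2% of all genes. DESeq2 called 2 of the 9 higher, beside 1.17% of all genes in that direction. Of 13 immunoglobulin constant genes in all, 8 were tested and 3 of these lay wholly higher, beside 8.2% of all genes. Igkc, the constant part of the kappa light chain, had 21.02, 3.21 and 4.84 CPM at 3 months and 25.8, 149.5 and 121 CPM at 9 months, a log2 fold change of 3.34 (SE 0.83), and Jchain, which joins the chains of IgA and IgM, had 5.78, 1.23 and 2.597 CPM at 3 months and 7.29, 53.1 and 39.2 CPM at 9 months, a log2 fold change of 3.35 (SE 0.77). Neither overlapped, although in both genes mouse 1 of the 9-month group lay close to mouse 1 of the 3-month group. Mice 2 and 3 of the 9-month group were far higher in both. Ighm, the heavy chain of IgM, had 7.84, 4.12 and 6.98 CPM at 3 months and 13.98, 10.8 and 9.66 CPM at 9 months, with no overlap, and there mouse 1 was the highest. Igha, the heavy chain of IgA, had 19.6, 5.401 and 7.995 CPM at 3 months and 17.4, 259 and 189 CPM at 9 months, and its groups overlapped. Summed over 218 immunoglobulin variable genes the level was 19.6, 5.08 and 5.50 CPM at 3 months and 29.6, 139 and 97.3 CPM at 9 months. The filter on low counts kept 24 of them. With sums this low at 3 months, a variable gene could pass it through the 9-month mice alone. How many of the 24 lay wholly higher is therefore not read as a result. Reads of near-identical variable genes cannot be assigned with certainty, so the sum is the firmer value. Ms4a1 and Pax5, markers of B cells before they secrete antibody, were under the count filter. T cell genes were low, with 15 of 16 at a higher fitted level and 2 wholly higher, beside 8.2% of all genes. Icos, a receptor of activated T cells, had 0.04899, 0.0535 and 0.255 CPM at 3 months and 1.03, 1.15 and 1.28 CPM at 9 months, and Zap70 had 1.91, 1.76 and 1.43 CPM at 3 months and 3.401, 3.23 and 2.85 CPM at 9 months. For Icos, mice 1 and 2 of the 3-month group lay under a count of 3, which was 0.15 and 0.163 CPM there. Icos thus passed the filter on low counts through the 9-month mice, and its lack of overlap is not read as a result. The haemoglobin genes given with cholesterol had the same 2 high 9-month mice and the same high 3-month mouse as Igkc, and their part in these results was not tested.

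The study's own secretory factors of senescent cells had a small median difference, with log2 fold changes of single genes from -1.82 to 2.56. Of 18 tested, 15 had a higher fitted level and 2 lay wholly higher, beside 8.2% of all genes. DESeq2 called 1 of the 18 higher, beside 1.17% of all genes in that direction. The median was 0.31, or 0.14 without mouse 1 of the 9-month group. It was 0.10 without mouse 1 of the 3-month group. The list gathers factors that the study names, in part for their course in this series, so its direction is not independent evidence. The 2 were Kitl, given with the granulosa genes, and Icam1, an adhesion receptor for leukocytes, with 13.7, 16.2 and 12.4 CPM at 3 months and 18.2, 19.9 and 17.3 CPM at 9 months. Il1b, a cytokine of macrophages, had 0.245, 0.802 and 0.153 CPM at 3 months and 0.648, 4.11 and 2.38 CPM at 9 months, with overlap. Its log2 fold change was 2.56 (SE 0.79), and it was the gene that DESeq2 called, at an adjusted p of 0.0341. Timp1, an inhibitor of matrix proteases, had 34.2, 133 and 49.5 CPM at 3 months and 71.4, 105 and 52.8 CPM at 9 months, with a log2 fold change of 0.07 (SE 0.47). Of 21 chemokine genes, 17 had a lower fitted level, 3 lay wholly lower, beside 11.5% of all genes, and 1 wholly higher, beside 8.2%. The median was -0.32, and it was -0.14 without mouse 2 and -0.44 without mouse 1 of the 3-month group, and -0.18 without mouse 3 of the 9-month group. Cxcl1, an attractant of neutrophils, lay wholly lower with 3.97, 8.45 and 1.83 CPM at 3 months and 1.296, 1.698 and 0.999 CPM at 9 months. Ccl2, an attractant of monocytes, had 1.18, 14.6 and 1.73 CPM at 3 months and 3.83, 0.712 and 0.381 CPM at 9 months, with overlap, and its log2 fold change was -1.82 with and 0.17 without mouse 2 of the 3-month group, which was high in both. Among 18 senescence markers, 2 lay wholly higher and 2 wholly lower, beside 8.2% and 11.5% of all genes. Their median was -0.05, it ran from -0.24 without mouse 1 of the 9-month group to 0.17 without mouse 2 of the 3-month group, and it thus had no settled sign. Cdkn1a, which encodes p21, had 12.98, 53.5 and 14.4 CPM at 3 months and 90, 20.4 and 14.9 CPM at 9 months, and mouse 1 of the 9-month group stood above the other 5. Without that mouse its log2 fold change was -0.62, against 0.64 with it. Cdkn2a, which encodes p16INK4a, had 0.539, 2.299 and 0.509 CPM at 3 months and 1.57, 0.767 and 0.476 CPM at 9 months, again with overlap. Lmnb1, a lamin lost in senescent cells, had 112, 89.3 and 113 CPM at 3 months and 96.4, 61.1 and 79.01 CPM at 9 months, which overlapped, and Bcl2l2, a survival gene of the BCL2 family, had 71.9, 65.5 and 75.9 CPM at 3 months and 95.2, 118 and 109 CPM at 9 months, a log2 fold change of 0.59 (SE 0.13).

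The ages of 6 and 12 months, which took no part in the comparison, were set beside it. The 6-month and the 12-month mice share no library with the 3-month and 9-month mice. Of the 12 higher named genes, 12 had a higher mean at 12 than at 6 months, and of the 12 lower ones 0 did, beside 51.8% of all genes tested. Abcb1b had a mean of 306 CPM at 6 months (136 to 504 CPM) and 594 CPM at 12 months (278 to 800 CPM), so its mice overlapped. Ctss had 112 and 267 CPM, and Col9a2 had 50.3 and 14.9 CPM. The direction did not hold at later ages for all of the named genes. At 18 and 25 months the mean of Abcb1b was 160 and 94.5 CPM, below its 3-month mean of 270 CPM. Nr4a1, with 29.3 and 39.8 CPM, and Rgcc, with 29.4 and 12.8 CPM, were also below their 3-month means of 44.3 and 55.3 CPM. Sik1 was below its 3-month mean at 18 months only. Slc11a1, Cpeb4, Rsad2, Sectm1a, Pde1a, Lrrn4 and Pcdhb9 were above theirs at both ages. Ctss had 680 and 1287 CPM at these ages, and Col9a2 had 3.01 and 6.03 CPM.

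Among the lists, 29 of 29 oocyte genes, 46 of 48 mitosis genes and 42 of 46 replication genes had a lower mean at 12 than at 6 months. Gdf9 had a mean of 55.2 CPM at 6 months and 23.5 CPM at 12 months, and Amh had 205 and 89.2 CPM. The averaged oocyte level relative to the 3-month mean was -0.57, -0.69 and -0.66 at 6 months and -1.31, -3.12 and -1.73 at 12 months, so that the 9-month mice lay below every 6-month mouse and overlapped the 12-month mice. Of 27 macrophage genes 26 had a higher mean at 12 than at 6 months, and the averaged level was 0.66, 0.55 and 0.65 at 6 months, above the 0.34, 0.47 and 0.41 of the 9-month mice. Ribosomal protein genes went the other way, with 59 of 81 higher at 12 than at 6 months. Cholesterol genes again varied by mouse, with averaged levels of -0.20, -0.01 and -0.08 at 6 months and 1.84, -0.33 and -0.26 at 12 months, and erythroid levels in the same mice of -0.22, 0.45 and -0.32 and 2.35, -0.41 and -0.29. The 12-month mouse with the high cholesterol level was the one with the high erythroid level.

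**Figure D5:**
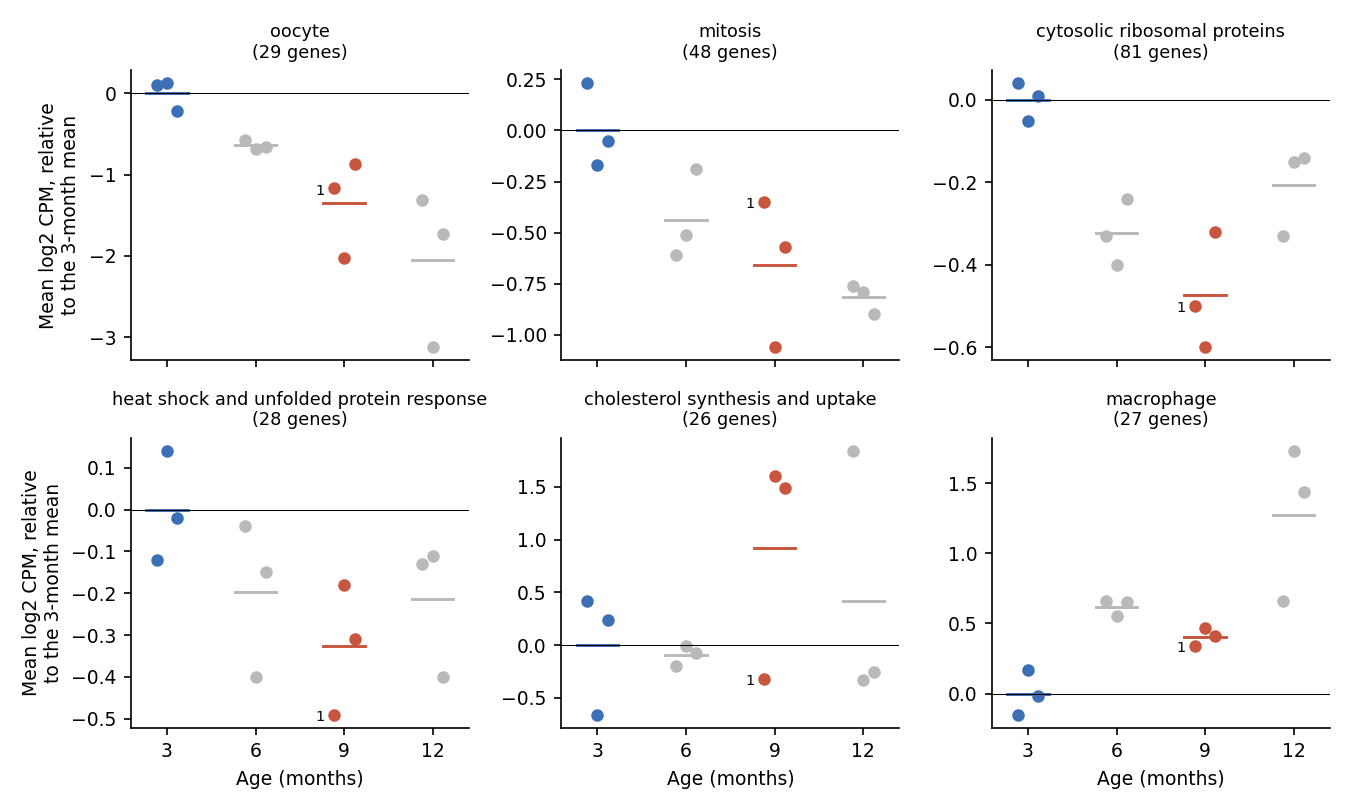
Mean log2 CPM over the genes of 6 lists in each mouse, relative to the mean of the 3-month mice (vertical axis), by age in months (horizontal axis), with the group mean as a bar. The 3-month mice are blue, the 9-month mice red and the 6-month and 12-month mice grey, and the digit marks mouse 1 of the 9-month group, which lies with the 3-month mice for cholesterol and near the other 2 for macrophage genes.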

How the data were processed

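Total RNA of whole ovaries was extracted by the authors with the TRIzol Plus kit and made into libraries with the NEBNext Ultra kit. Per the labels, the reads were aligned with STAR to mm10. The counting program, its strand setting and all versions are not given in the sources used here, so genes that overlap or face each other on opposite strands cannot be told apart. The deposited table holds raw counts per gene for 24 libraries, with no normalization by the authors, and columns were matched to samples by the labels.

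Genes were filtered with filterByExpr (edgeR 4.0.16, R 4.3.3), scaled by TMM over the 6 libraries of 3 and 9 months, and tested with edgeR's quasi-likelihood test, with p-values adjusted by Benjamini-Hochberg over all genes tested. The alternatives were RLE and upper-quartile scaling, DESeq2 1.42.0, 2 other filters on low counts, a block for the replicate number, a fit of all 24 libraries, each library left out and, for lists, subtraction of the trend with length and GC content. The script was tested on simulated counts. A count of 3 corresponded to 0.143 to 0.163 CPM, which covers counting error only. Gene names and coordinates are those of GENCODE M21 on GRCm38, the release that fits the gene IDs.

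The gene lists were chosen with earlier results of these data known. Across all genes, 12 named protein-coding genes in each direction were taken by largest fold change among those passing the test, without overlap and with a mean of at least 2 CPM. Since 0 passed, the places went to the smallest p. Of each list the 3 members of smallest p were candidates, and other members were named for their role after their values were seen. Some members of the lists are not reported here by name.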

Additional observations from a re-analysis of the deposited data

How the results depend on the processing

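The number of genes passing an adjusted p under 0.05 was 0 higher and 0 lower with TMM, RLE and upper-quartile scaling, with at least 10 counts in every library and with the replicate block. DESeq2 gave 227 higher and 320 lower, no filter on low counts 363 and 318, and the fit of all 24 libraries 9 and 6. Without a filter, edgeR's prior degrees of freedom were 31.5 over 32900 genes, against 3.99 over 17329. With each library left out the counts ran from 0 to 10 higher, the 10 being reached without mouse 1 of the 9-month group, and were 0 lower throughout. The replicate numbers were not taken as pairs, since the labels state no pairing. The deviations of same-numbered mice from their group means had correlations of -0.192, -0.102 and -0.0359. Those of differently numbered mice ran from -0.151 to 0.193, so with so few mice these values cannot decide the question. The fits with and without the block both had 0 calls, which cannot decide it either. The median log2 fold change of all genes ran from -0.019 to 0.038 over all settings.

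Of the genes named, the sign changed outside the leave-one-out fits for Csf1r, at -0.00 with upper-quartile scaling, and for Hspa1a, at 0.01 with the replicate block. With each library left out the sign changed for 14 genes, whose log2 fold changes ran from -0.97 to 2.73 for Akr1c18, -0.62 to 1.60 for Cdkn1a, -0.93 to 0.62 for Cyp17a1, -0.85 to 0.82 for Cdkn2a, -0.26 to 0.85 for Timp1, -3.41 to 0.17 for Ccl2, -0.28 to 0.05 for Adgre1, -0.03 to 0.14 for C1qa, -0.04 to 0.12 for Csf1r, -0.10 to 0.22 for Foxl2, -0.30 to 0.00 for Taf4b, -0.10 to 0.58 for Mx1, -0.19 to 0.12 for Isg15 and -0.23 to 0.30 for Hspa1a. The cause was not tested.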

Other observations

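Circadian clock genes had a higher fitted level in 16 of 19 cases, with 5 genes wholly higher, beside 8.2% of all genes. Their median log2 fold change was 0.34, or 0.19 without mouse 1 of the 9-month group. Per1, a repressor of the clock, had 58.9, 77.7 and 79.4 CPM at 3 months and 112, 240.4 and 89.05 CPM at 9 months, and Rora, a nuclear receptor that drives Bmal1, had 67.4, 30 and 43.3 CPM at 3 months and 80.1, 117 and 87.2 CPM at 9 months. The hour at which the ovaries were taken was not recorded, and its part was not tested. Surface epithelium genes were mixed, with 3 of 11 wholly higher. These were Muc16, Upk1b and Upk3b, and Muc16, a mucin of this layer, had 9.16, 7.43 and 8.76 CPM at 3 months and 16.2, 14.4 and 14.6 CPM at 9 months, with a log2 fold change of 0.83 (SE 0.18). Of 35 antioxidant genes 5 lay wholly higher and 2 wholly lower, beside 8.2% and 11.5% of all genes. Srxn1, which repairs oxidized peroxiredoxins, had 25.2, 35.6 and 38.9 CPM at 3 months and 49.1, 71.7 and 48.5 CPM at 9 months, and Gpx3, a secreted glutathione peroxidase, had 1248, 1224 and 1403 CPM at 3 months and 1701, 5348 and 1971 CPM at 9 months. Endothelial genes had a higher fitted level in 11 of 13 cases, with Robo4 and Tek wholly higher at log2 fold changes of 0.60 (SE 0.16) and 0.45 (SE 0.17). Genes of meiosis and cohesion had a lower fitted level in 11 of 14 cases, with a median of -0.42, or -0.22 without mouse 2 of the 9-month group.

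The oocyte genes Tcl1 and Oosp3, which are outside the list, were lower at 9 months without overlap. Tcl1, which is abundant in oocytes, had 19.6, 20.1 and 12.2 CPM at 3 months and 6.42, 4.87 and 7.23 CPM at 9 months, and Oosp3, a relative of Oosp1, had 4.85, 3.58 and 4.23 CPM at 3 months and 1.84, 1.26 and 1.67 CPM at 9 months. These were chosen after their values were seen. Gm15433, annotated as a processed pseudogene, whose reads may come from near-identical copies, had 0.294, 0.267 and 0.204 CPM at 3 months and 3.24, 3.07 and 2.71 CPM at 9 months, and the lowest adjusted p of all genes, 0.0745, was shared by it, Abcb1b and Gm42303. Gm42303, annotated as an antisense RNA, had 17.6, 13.1 and 14 CPM at 3 months and 3.401, 4.11 and 3.901 CPM at 9 months, and without a stated strand setting its reads cannot be told from those of the opposite gene. Neat1, the long noncoding RNA of nuclear paraspeckles, had 805, 713 and 669 CPM at 3 months and 1074, 1954 and 1537 CPM at 9 months.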
